A study of Mus musculus with 18 samples.

Results

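C-terminal binding proteins 1 and 2 (CTBP1 and CTBP2) are transcriptional co-repressors with no DNA-binding domain of the sequence-specific kind. They are brought to chromatin by partners, most of which carry a short peptide named the PXDLS motif that fits into a cleft of CTBP. The genes described here encode 7 such partners that lie outside the KLF family: Zeb1, Zeb2, Ikzf1, Hic2, Rreb1, Nrip1 and Zfpm1. They were chosen by symbol, with earlier results of these data known. Of the 7 genes, 6 had a row in the table of 18204 genes and all 6 were among the 16383 genes tested. Zeb1 was not analysed here.

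The 18 samples came from J774.1, a mouse macrophage cell line. Wildtype cells and Ctbp1/2 dKO cells, in which both Ctbp genes were disrupted with CRISPR, were each given vehicle (PBS/DMSO), MTOB at 1.5 mM or 4-Cl-HIPP at 250 µM over 4 h, with 3 samples in each of the 6 groups. MTOB is a keto acid, and 4-Cl-HIPP is an oxime acid with a chlorophenyl ring. Both compete with the substrate of the CTBP dehydrogenase domain. The dKO cells were grown out from single cells and the number of clones is not given in the sources used here, so genotype and clone cannot be told apart. The labels do not say whether the 3 samples of a group came from separate cultures, while the methods call them biological triplicates, so the p-values measure the spread between these samples. The doses of the inhibitors differ, so their values stand side by side and were not compared with each other.

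Expression is given as TPM (a share of all transcripts in the sample, corrected for transcript length). Differences are given on the log2(TPM + 1) scale, with the SE of limma's moderated test and a Benjamini-Hochberg-adjusted P-value over all genes tested. A gene was called changed at an adjusted P-value below 0.05, and calls with a fold above 1.5 were also counted. Ctbp1 fell from 218 ± 18.1 TPM in wildtype to 25.1 ± 0.638 TPM in dKO cells under vehicle (SD, n = 3). Ctbp2 fell from 92.6 ± 4.57 to 75.9 ± 3.13 TPM, and both were called lower in dKO under all 3 treatments. The remaining transcripts do not measure the proteins, and the authors reported by western blot that both proteins were lost. TPM values keep no depth, so how deeply each library was read is unknown. Samples of 1 group correlated at Pearson r of 0.983 to 0.987 across genes. The macrophage markers Csf1r, Adgre1, Itgam, Cd68, Lyz2, Spi1, Fcgr1 and Cd14 were present throughout, 8 of 8, with a summed level of 2604 to 3425 TPM in wildtype and 2321 to 2853 TPM in dKO samples. The summed T cell, B cell, epithelial, endothelial and fibroblast markers reached at most 2.10 TPM in any sample.

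The 6 factors act at different points of CTBP recruitment. Zeb2 encodes a repressor with clusters of zinc fingers at both ends, which binds E-box-like elements around the letters CACCT and represses epithelial genes, and which is also known as a factor of macrophage and dendritic cell identity. Ikzf1 encodes Ikaros, a zinc-finger regulator of blood cell development. Hic2 encodes a BTB zinc-finger repressor, and Rreb1 encodes a large zinc-finger protein that binds RAS-responsive elements. Zfpm1 encodes FOG1, a multi-zinc-finger cofactor that binds GATA factors rather than DNA. Nrip1 encodes RIP140, a nuclear receptor cofactor without a DNA-binding domain, known as a repressor of oxidative metabolism genes and, in macrophages, as a co-activator of NF-kB cytokine genes.

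The promoters of the 3 factors that were higher in dKO cells under vehicle, Zeb2, Ikzf1 and Nrip1, are shown with that of Zfpm1, for which no genotype difference passed the test. The stretches were read from the mouse genome build GRCm39, 5′ to 3′ on the strand of the gene, within the 250 bases before the start of the Gencode canonical transcript. Bases that lie in an exon of another transcript of the gene were left out. Capitals mark the 5-letter run CACCC or its reverse complement GGGTG, the core of the boxes bound by KLF factors, and CACCT or its reverse complement AGGTG, the half-site of ZEB factors. The Zeb2 stretch is chr2:45003297-45003427 (minus strand), that of Ikzf1 chr11:11635426-11635509 (plus strand), that of Nrip1 chr16:76170020-76170269 (minus strand) and that of Zfpm1 chr8:123008555-123008804 (plus strand).
Zeb2: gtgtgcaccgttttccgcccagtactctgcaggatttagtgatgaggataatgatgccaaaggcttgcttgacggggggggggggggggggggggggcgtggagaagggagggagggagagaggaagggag
Ikzf1: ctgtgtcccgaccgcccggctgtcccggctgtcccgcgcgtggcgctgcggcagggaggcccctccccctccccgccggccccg
Nrip1: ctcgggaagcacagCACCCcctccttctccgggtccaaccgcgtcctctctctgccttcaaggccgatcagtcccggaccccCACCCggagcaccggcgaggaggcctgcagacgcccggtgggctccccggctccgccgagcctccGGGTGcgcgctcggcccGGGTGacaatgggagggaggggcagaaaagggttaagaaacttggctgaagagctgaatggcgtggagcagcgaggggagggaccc
Zfpm1: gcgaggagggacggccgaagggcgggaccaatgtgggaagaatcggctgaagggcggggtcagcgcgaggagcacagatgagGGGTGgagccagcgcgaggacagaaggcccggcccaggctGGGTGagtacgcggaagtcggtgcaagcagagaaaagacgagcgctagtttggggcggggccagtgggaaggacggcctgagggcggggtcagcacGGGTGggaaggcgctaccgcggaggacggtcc
The Nrip1 window held 4 CACCC runs and the Zfpm1 window 3, and neither held CACCT. The stretches of Zeb2 and Ikzf1 held neither run. Over their whole windows of 250 bases, exon bases included, Zeb2 held 1 CACCT and 0 CACCC and Ikzf1 0 CACCT and 1 CACCC. Hic2 held 1 CACCT and 2 CACCC in its window and Rreb1, whose window lies in exons of its other transcripts, 2 of each. Among the windows of 21770 protein-coding genes, searched on both strands, 52.9% held CACCC and 47.6% held CACCT. The 6-letter run CACCTG (or CAGGTG) was in no window of the 6 factors and in 17.7% of all windows. The run TGGGAA (or TTCCCA), a core to which Ikaros binds, was found 3 times in the Zfpm1 window and 1 time in that of Rreb1, in none of the other 4, and in 22.7% of all windows. These matches describe letters only.

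In wildtype cells the factors covered a wide range of levels. Over the 9 wildtype samples Ikzf1 was the highest at 50.7 ± 3.28 TPM, followed by Zeb2 at 29.6 ± 4.59 and Zfpm1 at 29.4 ± 3.20 TPM (SD, n = 9). Rreb1 followed at 20.1 ± 2.98, Nrip1 at 10.6 ± 1.25 and Hic2 at 1.56 ± 0.369 TPM. Zeb2 and Zfpm1 lay within each other's spread. The sample ranges of the other neighbours in this order did not meet, except those of Rreb1 (15.7 to 24.8 TPM) with Zfpm1 (24.6 to 34.4 TPM) and with Zeb2 (21.7 to 36.5 TPM). In the 9 dKO samples Zeb2, at 63.1 ± 13.8 TPM, was level with Ikzf1, at 62.9 ± 4.40 TPM, and the order below them was Zfpm1 (28.5 ± 2.33), Rreb1 (25.9 ± 3.27), Nrip1 (14.0 ± 1.87) and Hic2 (1.76 ± 0.387 TPM). The dKO ranges of Zfpm1 (25.0 to 33.0 TPM) and Rreb1 (20.8 to 30.4 TPM) overlapped.

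**Figure D1:**
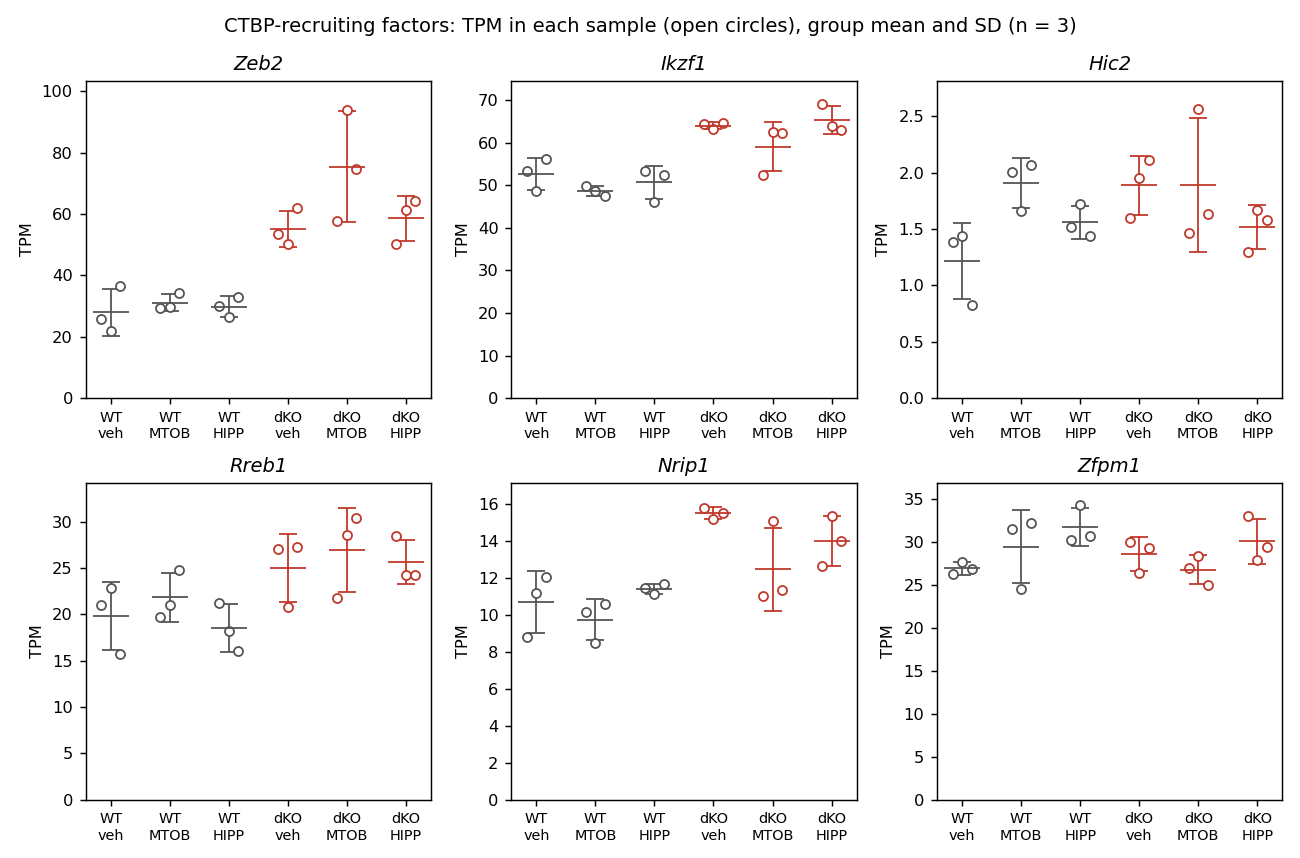
TPM of the 6 factors in each of the 18 samples (1 panel a gene, open circles, axes from 0), by genotype (WT grey, dKO red) and treatment, with the group mean and SD (n = 3; veh, vehicle; HIPP, 4-Cl-HIPP). All 9 dKO samples of Zeb2 lie at or above 50.3 TPM and all 9 wildtype samples at or below 36.5 TPM, whereas the Zfpm1 samples of both genotypes share 1 range.

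The first question was whether the genes of these partners are expressed at another level in cells without intact Ctbp genes. Zeb2, Ikzf1 and Nrip1 were higher in dKO than in wildtype cells under vehicle, and Zeb2 and Ikzf1 also under MTOB and under 4-Cl-HIPP. No factor was called lower. Thus 3 of 6 factors were higher under vehicle, where 7.01% of all genes tested were called higher, and 2 of 6 under MTOB and under 4-Cl-HIPP, where the shares of all genes were 6.98% and 6.6%. With the fold limit of 1.5 added, Zeb2 alone was called in each treatment, beside 3.28%, 3.33% and 3.14% of all genes. The shares of all genes are not matched for level. Genes were tested from a mean normalized count of 0.222 upwards, and the factors stood at 50.3 to 1054. The median difference of the 6 factors was 0.36, 0.28 and 0.32 log2 under vehicle, MTOB and 4-Cl-HIPP, and that of all genes tested 0.01, 0.0032 and 0.0046 log2.

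Zeb2 (ENSMUSG00000026872, GRCm39 chromosome 2, 44873644 to 45007464, minus strand) measured 25.7, 21.7 and 36.5 TPM in the wildtype vehicle samples and 53.5, 50.4 and 61.8 TPM in the dKO vehicle samples. Under MTOB it measured 29.2, 29.7 and 34.2 TPM in wildtype and 57.8, 93.8 and 74.7 TPM in dKO samples. Under 4-Cl-HIPP it measured 30.0, 26.3 and 33.0 TPM in wildtype and 50.3, 61.2 and 64.4 TPM in dKO samples. The genotypes did not overlap in any treatment, and the lowest dKO sample was above the highest wildtype sample of any treatment. Zeb2 rose by 0.98 log2 under vehicle (SE 0.18, limma adjusted p = 0.00155), a 1.98-fold difference on the TPM + 1 scale. Under MTOB it was higher in dKO by 1.23 log2 (SE 0.18, limma adjusted p = 0.000204, 2.35-fold), and under 4-Cl-HIPP by 0.95 log2 (SE 0.18, limma adjusted p = 0.00205, 1.94-fold). The spread was widest in dKO cells under MTOB, where the samples ran from 57.8 to 93.8 TPM around a mean of 75.4 TPM (n = 3).

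The exons of Zeb2 share 871 bases with those of Zeb2os, a long noncoding RNA on the opposite strand, and the library kit did not mark strand, so reads of this stretch cannot be assigned to 1 strand. Zeb2os was listed at 1.79 to 6.97 TPM over the 18 samples, well below Zeb2 in each. Its difference between dKO and wildtype was -0.19, -0.03 and -0.56 log2 under vehicle, MTOB and 4-Cl-HIPP and passed the test in none of them (limma adjusted p = 0.812, 0.993 and 0.326).

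Ikzf1 (ENSMUSG00000018654, chromosome 11, 11634980 to 11723186, plus strand) measured 53.4, 48.7 and 56.1 TPM in wildtype vehicle and 64.4, 63.2 and 64.7 TPM in dKO vehicle samples. The values under MTOB were 50.0, 48.7 and 47.5 TPM in wildtype and 52.5, 62.6 and 62.2 TPM in dKO samples, and those under 4-Cl-HIPP 53.4, 46.2 and 52.6 TPM in wildtype and 69.2, 63.9 and 63.1 TPM in dKO samples. The groups did not overlap within a treatment, though the lowest dKO sample under MTOB lay among the wildtype samples of the other treatments. The differences of Ikzf1 were small in size, at 0.28, 0.27 and 0.36 log2 under vehicle, MTOB and 4-Cl-HIPP (SE 0.07 each, limma adjusted p = 0.0180, 0.0223 and 0.00304), or 1.21-, 1.20- and 1.29-fold. The call under vehicle was lost without dKO vehicle replicate 1 or 3 or wildtype vehicle replicate 2, and that under MTOB without replicate 2 or 3 of either genotype's MTOB group or when only the compared groups were fitted (limma adjusted p = 0.0545 to 0.131 over these fits).

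Nrip1 (ENSMUSG00000048490, chromosome 16, 76084280 to 76170774, minus strand) measured 8.80, 11.2 and 12.1 TPM in wildtype vehicle samples and a narrow 15.8, 15.2 and 15.5 TPM in dKO vehicle samples. It measured 10.1, 8.50 and 10.6 TPM in wildtype and 11.0, 15.1 and 11.3 TPM in dKO samples under MTOB. The values under 4-Cl-HIPP were 11.5, 11.1 and 11.7 TPM in wildtype and 12.7, 15.4 and 14.0 TPM in dKO samples. All dKO samples were above all wildtype samples within each treatment. Under vehicle Nrip1 was higher in dKO by 0.51 log2 (SE 0.12, limma adjusted p = 0.00987, 1.42-fold). The differences under MTOB (0.32 log2, limma adjusted p = 0.111) and 4-Cl-HIPP (0.27 log2, limma adjusted p = 0.202) did not pass. The test of whether the inhibitor changed this difference also did not pass, at 0.19 log2 for MTOB and 0.24 log2 for 4-Cl-HIPP (wildtype minus dKO effect, 95% CI -0.17 to 0.55 and -0.12 to 0.60, limma adjusted p = 0.884 and 1). The call under vehicle was lost without wildtype vehicle replicate 1 (0.39 log2, limma adjusted p = 0.0566) and when only the vehicle groups were fitted (limma adjusted p = 0.0584).

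Rreb1 (ENSMUSG00000039087, chromosome 13, 37962376 to 38135985, plus strand) had higher means in dKO cells in every treatment but passed in none. It measured 21.0, 22.8 and 15.7 TPM in wildtype and 27.0, 20.8 and 27.3 TPM in dKO vehicle samples, so 1 dKO sample lay within the wildtype range. The groups also overlapped under MTOB, with 19.7, 21.1 and 24.8 TPM in wildtype and 21.8, 28.6 and 30.4 TPM in dKO samples. They did not under 4-Cl-HIPP, with 21.3, 18.2 and 16.1 TPM in wildtype and 28.4, 24.2 and 24.2 TPM in dKO samples. Differences were 0.33, 0.28 and 0.45 log2 under vehicle, MTOB and 4-Cl-HIPP (SE 0.15 each, limma adjusted p = 0.240, 0.316 and 0.0834). The last of these passed when genes with a mean normalized count below 10 were left out (limma adjusted p = 0.0486).

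Hic2 (ENSMUSG00000050240, chromosome 16, 17051425 to 17081294, plus strand) was the lowest of the factors, with a mean normalized count of 50.3 over all samples, against 308 to 1054 for the other 5. It measured 1.38, 1.44 and 0.825 TPM in wildtype vehicle and 1.60, 1.95 and 2.11 TPM in dKO vehicle samples, which did not overlap. The difference of 0.39 log2 did not pass (SE 0.15, limma adjusted p = 0.126). Under MTOB and 4-Cl-HIPP the Hic2 differences were both -0.03 log2 (95% CI -0.35 to 0.29 and -0.34 to 0.29), with overlapping groups. Hic2 shares 229 exon bases with Gm49573, a long noncoding RNA on the same strand that was listed at 0 to 1.79 TPM, so the split of reads between these genes is uncertain.

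Zfpm1 (ENSMUSG00000049577, chromosome 8, 123008805 to 123065024, plus strand) measured 26.3, 27.7 and 26.9 TPM in wildtype and 30.1, 26.4 and 29.4 TPM in dKO vehicle samples, which overlapped. The groups also overlapped under MTOB and 4-Cl-HIPP. Its differences were 0.08, -0.12 and -0.08 log2, with 95% CIs of -0.12 to 0.29, -0.33 to 0.08 and -0.28 to 0.13 log2 (limma adjusted p = 0.731, 0.523 and 0.750). A rise of the size measured for Zeb2 lies outside all 3 intervals.

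**Figure D2:**
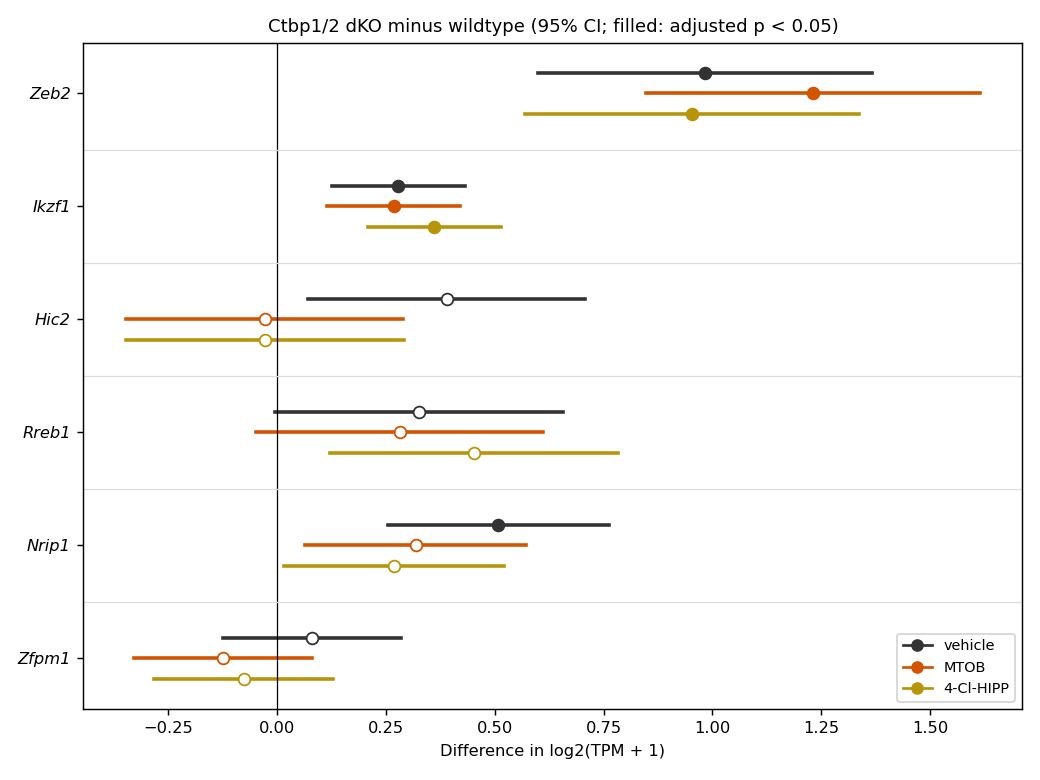
Difference between Ctbp1/2 dKO and wildtype cells in log2(TPM + 1) (x axis) for each factor (rows) under vehicle, MTOB and 4-Cl-HIPP, with 95% CI from the fit over 18 samples; filled points have a limma adjusted p below 0.05. The 3 Zeb2 points lie between 0.95 and 1.23, Ikzf1 is filled in all 3 treatments at 0.27 to 0.36, and Nrip1 under vehicle alone at 0.51.

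Other genes moved with genotype in the same samples. Of the 8 macrophage markers, Cd14 (458 ± 16.8 to 143 ± 7.24 TPM) and Adgre1 (29.1 ± 5.55 to 8.93 ± 1.04 TPM) were lower in dKO under vehicle, and Itgam (15.8 ± 4.51 to 47.9 ± 3.64 TPM), Fcgr1 and Cd68 were higher (SD, n = 3). The other 3, Csf1r, Lyz2 and Spi1, were not called under vehicle, where 10.7% of all genes were called in either direction. The Fcgr1 call was lost with only the vehicle groups and without dKO vehicle replicate 2 (limma adjusted p = 0.0845 and 0.0545). The endothelial markers summed to 0 to 0.421 TPM in wildtype and 0.640 to 2.10 TPM in dKO samples. Pecam1 was the main part in 8 of the 9 dKO samples, at 0.451 to 1.43 TPM over all 9, and Cdh5, at 1.43 TPM, in dKO MTOB replicate 2, which had the highest sum. The part of these changes in the levels of Zeb2, Ikzf1 and Nrip1 was not tested. In bulk RNA, fewer cells that express a gene and less of its RNA per cell cannot be told apart.

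The second question was whether MTOB or 4-Cl-HIPP altered the expression of these partners. None of the 6 factors was called changed by either inhibitor in either genotype with limma. MTOB changed 7.26% of all genes tested in wildtype and 6.58% in dKO cells, and 4-Cl-HIPP 0.366% and 0.501%. At an unadjusted p below 0.05, the counts of factors were 1 and 2 for MTOB in wildtype and dKO cells, beside 18.4% and 19.0% of all genes, and 1 and 0 for 4-Cl-HIPP, beside 8.19% and 8.47%.

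Hic2 was higher in every MTOB-treated wildtype sample than in every vehicle sample (2.00, 1.66 and 2.07 against 1.38, 1.44 and 0.825 TPM), a difference of 0.40 log2 that did not pass (95% CI 0.08 to 0.72, limma adjusted p = 0.139). In dKO cells Hic2 measured 1.47, 2.57 and 1.63 TPM under MTOB, around the vehicle values, with a difference of -0.02 log2 (95% CI -0.33 to 0.30). The 3 samples of wildtype cells under 4-Cl-HIPP (1.51, 1.72 and 1.44 TPM) were also above those under vehicle, by 0.22 log2 (95% CI -0.10 to 0.54). The dKO samples under 4-Cl-HIPP measured 1.30, 1.67 and 1.58 TPM. The difference of the Hic2 effect between genotypes was 0.42 log2 for both inhibitors, with intervals that reached 0 (95% CI -0.03 to 0.87 each, limma adjusted p = 0.747 and 1); both differences use the same vehicle samples.

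Nrip1 was lower in each dKO sample under MTOB than in each under vehicle, by 0.31 log2 (95% CI -0.56 to -0.05, limma adjusted p = 0.162). Without dKO MTOB replicate 2, the highest of the 3 at 15.1 TPM, the difference was -0.44 log2 and passed (limma adjusted p = 0.0315). In wildtype cells it was -0.12 log2 (95% CI -0.37 to 0.14). Under 4-Cl-HIPP, Nrip1 differed from vehicle by 0.10 log2 in wildtype and -0.14 log2 in dKO cells, with overlapping samples.

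Zeb2 was 0.42 log2 higher under MTOB than under vehicle in dKO cells (95% CI 0.04 to 0.80, limma adjusted p = 0.209), with overlapping samples, and 0.17 log2 higher in wildtype cells (95% CI -0.21 to 0.56). Under 4-Cl-HIPP the differences were 0.11 log2 in wildtype and 0.08 log2 in dKO cells (95% CI -0.27 to 0.50 and -0.30 to 0.47). Each of these 4 intervals lies below the 0.98 log2 by which Zeb2 rose in dKO cells under vehicle. The 95% CI of that rise, 0.60 to 1.37 log2, overlaps the MTOB interval in dKO cells. Whether the sizes differ was not tested.

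Ikzf1 differed from vehicle by -0.11 log2 in wildtype and -0.12 log2 in dKO cells under MTOB (95% CI -0.26 to 0.04 and -0.27 to 0.03), where the 3 dKO samples lay below the 3 of vehicle. Under 4-Cl-HIPP its differences were -0.05 and 0.03 log2. Rreb1 differed by 0.14 and 0.10 log2 under MTOB and by -0.09 and 0.04 log2 under 4-Cl-HIPP in wildtype and dKO cells, with overlapping samples throughout.

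Zfpm1 measured 30.2, 34.4 and 30.8 TPM under 4-Cl-HIPP in wildtype cells, above the 26.3, 27.7 and 26.9 TPM under vehicle. This difference of 0.23 log2 (95% CI 0.02 to 0.43) did not pass (limma adjusted p = 0.546), and in dKO cells it was 0.07 log2 (95% CI -0.13 to 0.27). Under MTOB, Zfpm1 measured 31.6, 24.6 and 32.2 TPM in wildtype and 27.0, 28.4 and 25.0 TPM in dKO cells, overlapping vehicle in both.

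No factor passed the test of whether an inhibitor's effect differed between the genotypes. For MTOB 0.0916% of all genes passed it and for 4-Cl-HIPP 0%. At an unadjusted p below 0.05 the count of factors was 0 for both with limma, beside 6.89% and 4.48% of all genes.

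**Figure D3:**
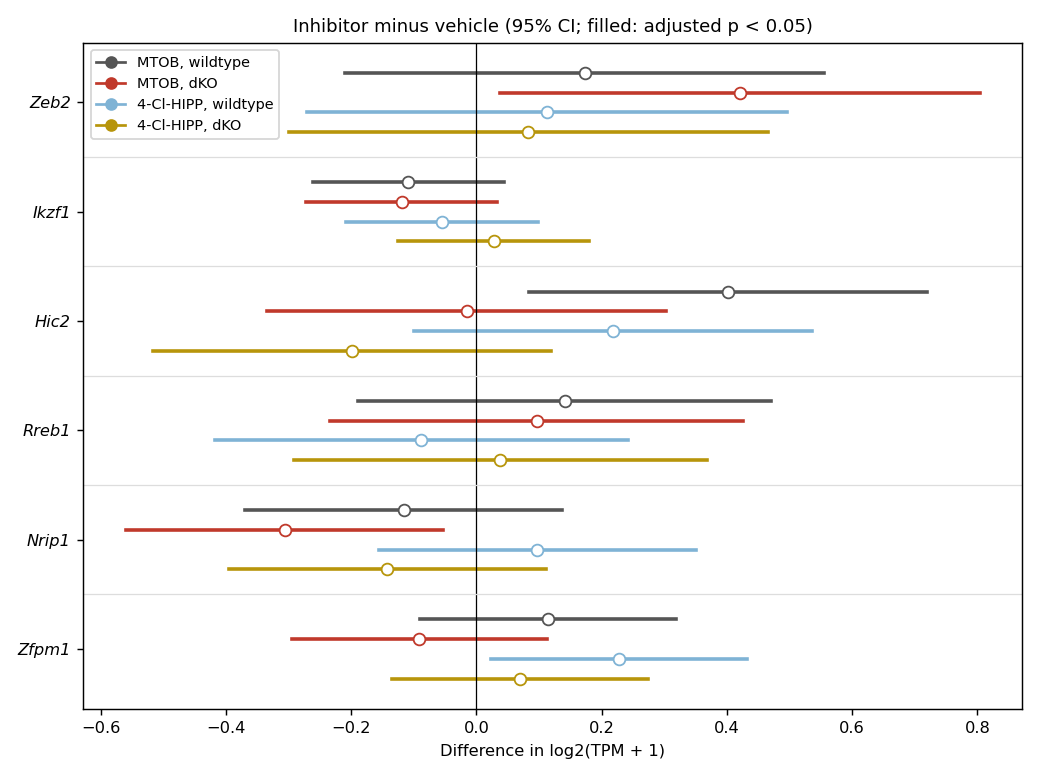
Difference between inhibitor and vehicle in log2(TPM + 1) (x axis) for each factor (rows), in wildtype and dKO cells, with 95% CI; filled points would have a limma adjusted p below 0.05, and no point is filled. The point estimates lie between -0.31 (Nrip1, MTOB, dKO) and 0.42 (Zeb2, MTOB, dKO), and 4 of the 24 intervals leave out 0.

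Other proteins known to bind CTBP were taken as a list of 29 genes, of which 20 had a row and 19 were tested. Under vehicle, 1 was higher and 1 lower in dKO cells, beside 10.7% of all genes changed in either direction, and the list's median was -0.05 log2. Zfp217, a zinc-finger oncoprotein that recruits co-repressors, rose from 17.6 ± 0.542 to 28.5 ± 0.530 TPM (SD, n = 3; 0.67 log2, limma adjusted p = 8.66e-08). Zfp516, a zinc-finger factor known from brown fat, fell from 2.90 ± 0.620 to 0.0258 ± 0.00147 TPM (-1.91 log2, limma adjusted p = 2.13e-05), a difference whose size depends on the pseudocount, at -4.55 log2 with 0.1 in place of 1. Both changed in the same direction under 4-Cl-HIPP (0.55 and -2.32 log2), where they were the only ones of the 19 called, beside 10.2% of all genes.

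Under MTOB the list had 3 genes higher and 2 lower in dKO cells, beside 11.2% of all genes in either direction, with a list median of 0.05 log2. Besides Zfp217 (0.64 log2) and Zfp516 (-2.19 log2), the homeodomain repressor Tgif1 (0.38 log2) and the methyl-CpG-binding factor Zbtb38 (0.35 log2) were higher. The zinc-finger repressor Bcl6 (-0.25 log2) was lower. The calls of Tgif1, Zbtb38 and Bcl6 were each lost in 4 or 5 of 13 alternative fits. They included the fits without dKO MTOB replicate 1 (all 3 genes), dKO MTOB replicate 2 (Zbtb38 and Bcl6) or 3 (Tgif1), and wildtype MTOB replicate 1 or 3 (Tgif1 and Bcl6) or 2 (Zbtb38). Among the Ikaros and FOG paralogs and Hic1, which the list of 29 also holds in part, Ikzf5 and Hic1 were tested and neither was called in any comparison.

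MTOB raised Bcl3, an IkB-family co-regulator, in wildtype (2.19 ± 0.520 to 5.19 ± 0.804 TPM, 0.96 log2) and in dKO cells (1.50 ± 0.323 to 3.90 ± 0.460 TPM, 0.98 log2). It raised Bcl6 in both as well (0.51 and 0.44 log2). The class IIa deacetylase Hdac9 fell by 0.42 log2 in wildtype cells under MTOB. Its call there and that of Bcl3 were lost when only the compared groups were fitted (limma adjusted p = 0.0891 and 0.0574). In dKO cells Hdac9 differed by -0.20 log2 under MTOB, which did not pass (limma adjusted p = 0.181). The difference of its MTOB effect between genotypes, -0.22 log2, did not pass either (limma adjusted p = 0.761). 4-Cl-HIPP changed 0 of the 19 in either genotype with limma, beside 0.366% of all genes in wildtype and 0.501% in dKO cells. At an unadjusted p below 0.05 the counts were 5 and 2 of 19, beside 8.19% and 8.47% of all genes.

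**Figure D4:**
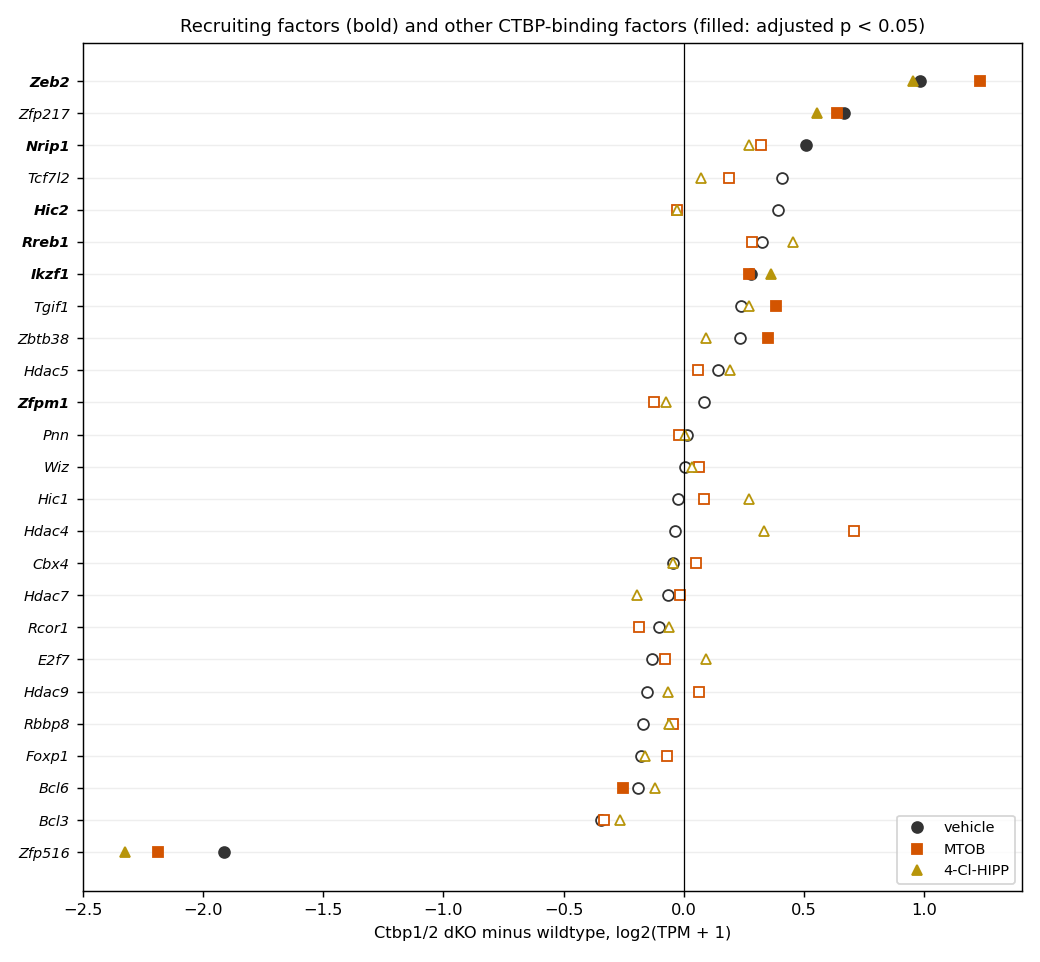
Difference between Ctbp1/2 dKO and wildtype cells in log2(TPM + 1) (x axis) for the 6 recruiting factors (bold) and 19 other CTBP-binding factors, ordered by the vehicle value; circles, squares and triangles are vehicle, MTOB and 4-Cl-HIPP, and filled points have a limma adjusted p below 0.05. Zeb2 is the rightmost gene in all 3 treatments and Zfp516 the leftmost.

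Known targets of Zeb2 and Nrip1 were counted in the same way. Of 24 epithelial genes that ZEB factors are known to repress, 11 had a row and 10 were tested. Only St14, which encodes the serine protease matriptase, was called in any of the 3 genotype comparisons, and it was higher in dKO cells, 1 of 10 beside 10.7%, 11.2% and 10.2% of all genes in either direction under vehicle, MTOB and 4-Cl-HIPP. It rose from 4.90 ± 0.267 to 18.6 ± 1.90 TPM under vehicle (1.73 log2, limma adjusted p = 6.9e-08), and was higher by 1.51 log2 under MTOB and 1.70 log2 under 4-Cl-HIPP. The list medians were 0.04, 0.01 and 0.07 log2, and 6 of the other 9 averaged below 1 TPM over the 18 samples. MTOB changed 0 of the 10 in wildtype and dKO cells with limma, beside 7.26% and 6.58% of all genes. 4-Cl-HIPP also changed 0 in each, beside 0.366% and 0.501%. At an unadjusted p below 0.05 the counts were 0 as well. The shares of all genes were then 18.4% and 19.0% for MTOB and 8.19% and 8.47% for 4-Cl-HIPP.

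Of 20 oxidative and fat metabolism genes that RIP140 is known to repress, 16 were tested. Ppargc1b, the PGC-1 beta co-activator, was 0.25 log2 higher in dKO cells under vehicle (8.89 ± 0.774 to 10.8 ± 0.533 TPM, SD, n = 3), and Cs, citrate synthase, 0.14 log2 (223 ± 1.82 to 246 ± 0.357 TPM). Under MTOB the fatty acid dehydrogenase Acadvl was 0.39 log2 higher and under 4-Cl-HIPP Cs was 0.15 log2 higher, so that 2, 1 and 1 of 16 were called, none lower, beside 10.7%, 11.2% and 10.2% of all genes called in either direction, shares from which counts of 1 or 2 of 16 do not stand apart. The Ppargc1b call was lost without dKO vehicle replicate 1, without wildtype vehicle replicate 2 or 3, or with only the vehicle groups (limma adjusted p = 0.0552 to 0.129). MTOB lowered Cs by 0.13 log2 in wildtype and 0.17 log2 in dKO cells, the only calls of the list for an inhibitor. The wildtype call was lost without wildtype MTOB replicate 1 or 3 or wildtype vehicle replicate 3 and with no variance trend (limma adjusted p = 0.0521 to 0.108). The other Cs calls were each lost in 1 alternative, with no variance trend under vehicle (limma adjusted p = 0.0653) and with only the compared groups under 4-Cl-HIPP (0.0617) and for MTOB in dKO cells (0.0822).

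Of the 7 cytokine and inflammatory genes listed as co-activated by RIP140 in macrophages, 4 were tested, and 1, 2 and 1 of these were lower in dKO cells under vehicle, MTOB and 4-Cl-HIPP, beside 10.7%, 11.2% and 10.2% of all genes called in either direction. Tnf, the main macrophage cytokine of the list, was lower in dKO cells under vehicle (65.3 ± 7.27 to 39.6 ± 2.78 TPM, SD, n = 3), by 0.70 log2, and under MTOB and 4-Cl-HIPP by 0.85 and 0.86 log2. MTOB raised Tnf in both genotypes (1.39 log2 in wildtype and 1.24 log2 in dKO cells). 4-Cl-HIPP lowered Tnf in dKO cells by 0.52 log2, a call lost with only the compared groups (limma adjusted p = 0.0931). In wildtype cells the Tnf difference under 4-Cl-HIPP was -0.36 log2 and did not pass (limma adjusted p = 0.0754). That difference passed without wildtype 4-Cl-HIPP replicate 2 (-0.44 log2, limma adjusted p = 0.0440) and with the stricter count filter of 10 (0.0458). Nos2, the inducible nitric oxide synthase, stood at 0.520 ± 0.0987 TPM in wildtype cells under MTOB and was listed at 0 in all 3 dKO samples, and the difference was called. Cxcl2, a neutrophil chemokine, was called higher under MTOB in dKO cells (0.253 ± 0.257 to 2.26 ± 0.706 TPM). This call was lost without any 1 of the 6 dKO samples compared (limma adjusted p = 0.0528 to 0.135). It was also lost with the replicate block (0.0595) and with only the compared groups (0.0606). In wildtype cells Cxcl2 was also higher under MTOB, at an unadjusted p below 0.05 with limma, but was not called. MTOB thus changed 2 of the 4 in each genotype, beside 7.26% of all genes in wildtype and 6.58% in dKO cells. No gene of the list passed the test of whether an inhibitor's effect differed between the genotypes. The shares of all genes there were 0.0916% for MTOB and 0% for 4-Cl-HIPP.

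Last, the genes whose level ran most like that of each factor were sought among 9718 genes with a mean of at least 5 TPM, ranked by the lower of the Pearson r over the 9 wildtype and over the 9 dKO samples. These r describe the samples and carry no test, since samples share treatments. The genes named were picked from the 9718 by these same r, so high values come in part from the choice itself. Zeb2 ran most like Atxn2, an RNA-binding protein gene (r = 0.87 in wildtype and 0.81 in dKO cells), and Uhrf1bp1l (0.78 and 0.77). Ikzf1 ran most like Smarca4, the BRG1 ATPase of SWI/SNF (0.87 and 0.86), and Slc6a6, the taurine transporter (0.85 and 0.87). Nrip1 ran most like Camkk2, a calcium/calmodulin-dependent kinase kinase (0.86 and 0.80), and Arel1 (0.79 and 0.85).

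For the other factors the leading genes were Cdk17 (0.96 and 0.82) and Gm15417 (0.82 and 0.74) for Hic2, Epha2 (0.79 and 0.69) and Tmem156 (0.83 and 0.69) for Rreb1, and Ptges3l (0.80 and 0.85) and Hsd17b11 (0.77 and 0.80) for Zfpm1. No factor was among the 2 leading genes of another, but Hic2 could not be, as its mean of 1.66 TPM was below the limit of 5 TPM. Between the factors, the r of a pair often had a different sign in each genotype. Zeb2 and Rreb1 had r of -0.40 in wildtype and 0.49 in dKO samples, and Ikzf1 and Hic2 -0.76 and 0.05. Nrip1 and Zfpm1 were positive in both (0.51 and 0.29).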

How the data were processed

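RNA of 18 samples was sequenced by the authors (TruSeq unstranded kit, rRNA depletion per the methods; the labels give polyA RNA). The authors quantified transcripts with Salmon 1.9.0 on Gencode M28 (GRCm39), summarised genes with tximport and ran DESeq2 1.44.0. The deposited values used here are the TPM of each gene and sample, summing to 999766 to 999897 per sample, and a signal per gene, the authors' mean normalized count over samples. The deposited table also holds the authors' log2 fold changes and adjusted p-values of each inhibitor, which were not used. Read depth is unknown.

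Samples were grouped by their labels. Genes above the 10th percentile of mean normalized count were fitted as log2(TPM + 1) with limma 3.58.1 (R 4.3.3), using 6 group means, all samples and moderated variances that follow a trend with the mean normalized count. The procedure was tried on simulated counts with a single fixed spread, in which genes of high mean count were doubled in dKO samples. Smaller differences and changes of genes with low counts were not simulated. Contrasts were dKO against wildtype in each treatment, inhibitor against vehicle in each genotype, and the difference of inhibitor effects. The members and lists were chosen with earlier results of these data known, and 1 gene of a list is not reported here. Named genes were the members, Ctbp1 and Ctbp2, list genes called in a comparison, at most 6 a list by size, and the 2 genes most like each member; Zeb2os and Gm49573 were added for their overlap, and pairs of factors, in the last paragraph, after their values were seen. Promoters and overlaps came from GRCm39 and its Gencode M39 annotation, with Python 3.11.15. Alternatives were a pseudocount of 0.1, no filter, a mean normalized count of at least 10, median-ratio scaling, no variance trend, only the compared groups, a replicate block and leaving out each sample.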

Additional observations from a re-analysis of the deposited data

How the results depend on the processing

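The count of the 6 factors changed was recomputed under 7 alternative settings and without each sample in turn. The counts of 3 under vehicle and 2 under 4-Cl-HIPP for dKO against wildtype, all higher, stood under the 7 settings to within 1.5 times. Leaving out 1 sample gave 2 to 3 under vehicle, 2 to 2 under 4-Cl-HIPP and 1 to 2 under MTOB. With only the compared groups fitted, the count under MTOB was 1, because Ikzf1 no longer passed. For MTOB against vehicle, leaving out 1 sample gave 0 to 1 in dKO cells, through Nrip1 without dKO MTOB replicate 2, and 0 to 0 in wildtype cells. For 4-Cl-HIPP against vehicle and for the 2 differences of effects between genotypes it gave 0 to 0 throughout. Zeb2 passed in every alternative of the 3 genotype comparisons (limma adjusted p = 4.78e-05 to 0.0460), with differences of 0.82 to 1.41 log2. No called value changed direction.

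The replicate numbers did not pair the samples: the correlations of same-numbered deviations were -0.06 to 0.08 and 0 of 21 were above 0.1. With the replicate block the counts for dKO against wildtype were 3, 2 and 2 under vehicle, MTOB and 4-Cl-HIPP, and 0 for each inhibitor and each difference of effects. Median-ratio scaling moved the median of all genes by at most 0.01 log2. Over all alternatives, 10 values of single factors lost their call and 2 gained one, and 71 values of list genes lost theirs. The counts of called list genes moved by over 1.5 times in 50 cases. Among the 19 other CTBP-binding factors, the count for MTOB in wildtype cells was 3, beside 7.26% of all genes. It went to 1 with only the compared groups. Their count for dKO against wildtype under MTOB went from 5 to 3 with only the compared groups or without replicate 1 or 2 of dKO MTOB or replicate 1 or 3 of wildtype MTOB; without dKO MTOB replicate 1, Tgif1, Zbtb38 and Bcl6 lost their call and Hdac4 gained one (1.02 log2, limma adjusted p = 0.00551). A pseudocount of 0.1 moved the low Zfp516 to -4.55, -4.80 and -4.77 log2 in dKO against wildtype cells under vehicle, MTOB and 4-Cl-HIPP, and Nos2 under MTOB to -2.62 log2. For MTOB against vehicle it moved Nos2 in wildtype cells to 2.18 log2 and Cxcl2 in dKO cells to 3.05 log2. Depth is unknown, and with 3 samples a group the narrowest 95% CI of a factor was 0.31 log2 wide and the widest 1.08 log2.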
